A study of Mus musculus with 16 samples.

Results

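Arpp19, Ensa and Arpp21 encode small phosphoproteins of the brain, and their transcripts were counted in mouse cortex and striatum with PacBio Iso-seq, a long-read method that sequences whole cDNA molecules. The members were all isoform rows annotated to these 3 genes in the transcript tables of 16 samples, 551 of 815498 rows in all, and they held 59 rows of Arpp19, 23 of Ensa and 469 of Arpp21. Male mice aged 3 months were compared by genotype and region in 4 groups of 4 samples: cortex of non-transgenic (NT) mice, cortex of R6/2 mice, striatum of NT mice and striatum of R6/2 mice. R6/2 mice, of the strain B6CBA-Tg(HDexon1)62Gpb/3J, carry exon 1 of human HTT with an expanded CAG repeat under the human HTT promoter and are a model of Huntington's disease that adds a transgene fragment to a pair of normal mouse alleles. The labels do not say whether the cortex and striatum of a number came from 1 mouse. The genes were chosen by isoform shares in the cortical comparison of R6/2 with NT mice, in which those of Arpp19 had stood out. Cortical values are therefore given without a test, as are those of Arpp19 between the regions, which rest on the same NT cortex samples. All tests are on the striatal R6/2 against NT comparison and on NT striatum against NT cortex. The choice by cortical shares did not use the striatal samples, although earlier results of these data were known when it was made. The tests between regions use the NT cortex samples of that choice, so the p-values of Ensa and Arpp21 there are not independent of it.

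ARPP-19 (cAMP-regulated phosphoprotein 19) and its paralogue alpha-endosulfine, the product of Ensa, belong to 1 family of inhibitors of protein phosphatase 2A. When the Greatwall kinase (Mastl), or in striatal neurons the related kinase MAST3, phosphorylates a conserved serine, these proteins bind and block PP2A that carries a B55 subunit, and a separate serine near the C terminus is a substrate of cAMP-dependent protein kinase (PKA). Arpp19 also gives rise to ARPP-16, a shorter protein that lacks the first residues and is abundant in striatal projection neurons, where dopamine acts through cAMP. ARPP-21, despite its name, is unrelated in sequence: its short form, the regulator of calmodulin signalling, sequesters calmodulin once PKA has phosphorylated it, and its long forms carry an R3H domain and bind RNA. An intron of Arpp21 holds the microRNA gene Mir128-2.

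The Arpp19 proteins differ only at their first codons, which the transcripts encode through different first exons. Arpp19 (ENSMUSG00000007656) lies on the plus strand at chr9:75037614-75060313 of GRCm38 (mm10), in the GENCODE M21 annotation used for every position here. The isoform of 4 exons (ENSMUST00000168166, chr9:75037614-75060294) and that of 3 exons (ENSMUST00000007800, chr9:75037718-75060313) start upstream and encode 112 codons, the ARPP-19 form. The isoform of 2 exons (ENSMUST00000166549, chr9:75052051-75058076) starts 14437 bases downstream and encodes 96 codons, the ARPP-16 form. The 16 codons held only by the long form are in lower case in the coding starts, and the start shared by both forms is in capitals:
Arpp19 4-exon isoform, coding bases 1 to 78: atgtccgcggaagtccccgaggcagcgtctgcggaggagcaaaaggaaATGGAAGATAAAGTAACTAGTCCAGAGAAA
Arpp19 2-exon isoform, coding bases 1 to 30: ATGGAAGATAAAGTAACTAGTCCAGAGAAA
The remaining coding bases were identical, so both phosphorylation sites stood in both forms, the Greatwall serine at codon 62 of the long form and 46 of the short form and the PKA serine at codons 104 and 88. Ensa (ENSMUSG00000038619) lies on the plus strand at chr3:95624993-95632102, and of 112 aligned codons of the long Arpp19 form and Ensa, 84 (75.0%) encoded the same amino acid. Both sites are printed because they are what the paralogues share, with the serine codon in capitals:
Arpp19 Greatwall site: aagtattttgatTCTggggactacaac
Ensa Greatwall site: aagtactttgacTCAggagactacaac
Arpp19 PKA site: cagcggaaaccgTCCctggttgctagc
Ensa PKA site: cagagaaagtccTCGctcgtcaccagc
In Ensa these serines are codons 67 and 109. The Ensa isoforms differ at the other end: that of 4 exons (ENSMUST00000058230, chr3:95625011-95632102) encodes 121 codons and that of 3 exons (ENSMUST00000037983, chr3:95625020-95632102), whose last exon reads on past a splice site, encodes 117. Their last codons follow, with everything from the first codon that differs in capitals, and lie downstream of both sites:
Ensa 4-exon isoform, coding bases 331 to 366: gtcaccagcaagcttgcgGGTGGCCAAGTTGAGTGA
Ensa 3-exon isoform, coding bases 331 to 354: gtcaccagcaagcttgcgGGGTAA

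**Figure D1:**
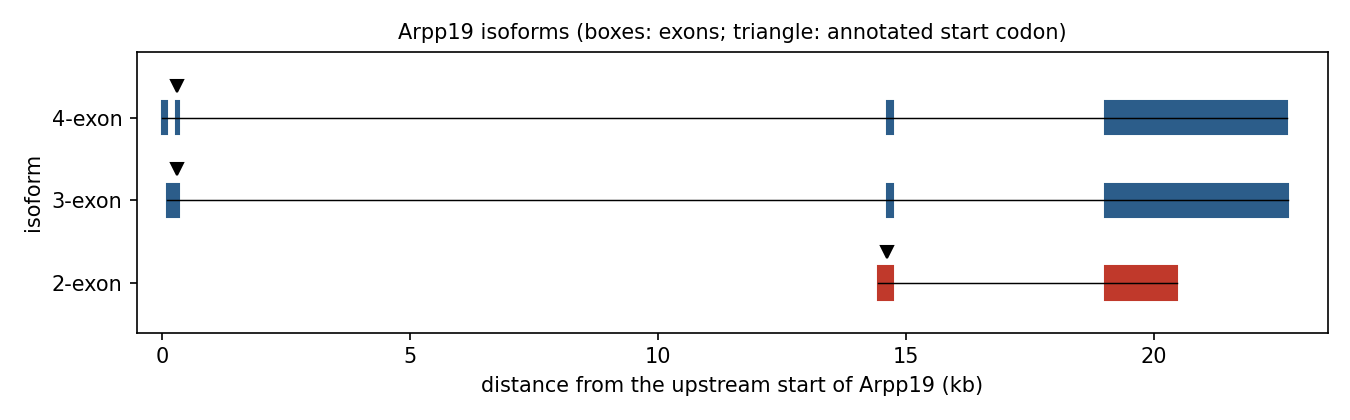
Exons of the 3 main Arpp19 isoforms (boxes), drawn to scale against the distance in kb from the upstream start of the gene, with a triangle at each annotated start codon. The 2-exon isoform starts inside the gene, upstream of an exon that the 4-exon and 3-exon isoforms share, and ends 2218 bases before the 4-exon isoform.

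A read in these tables is a sequenced cDNA, placed by the program TALON in a class by its splice junctions. The cDNA had been amplified by PCR, so reads can be copies of 1 molecule. Known reads match an annotated transcript, NIC reads combine splice sites that are annotated into a chain that is not, NNC reads use an unannotated splice site. ISM (incomplete splice match) reads hold only part of an annotated chain of junctions, and genomic reads hold unspliced sequence. Known, NIC and NNC reads are called complete here, and an isoform's share is its percent of the complete reads of its gene. Gene levels add the ISM reads and are given as CPM (counts scaled to library size) after TMM scaling, with no correction for length. Known isoforms held 83.7% of Arpp19 reads, 93.8% of Ensa reads and 69.96% of Arpp21 reads over all samples. ISM reads held 5.90%, 1.36% and 15.3%. These percents count genomic reads in the total, and the ISM and suffix percents given per group or sample below leave them out.

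Table totals ran from 252885 to 808814 reads per sample in the cortex and from 317050 to 1496196 in the striatum. NT 1, NT 2, R6/2 2 and R6/2 3 of the striatum had 2 deposited sets of counts, which were summed, and the other 12 samples had 1, so the number of sets was a term in the striatal models. Marker genes set the labelled regions apart: the summed level of 10 genes of striatal projection neurons was 10632 to 14529 CPM in NT striatum and 402 to 503 CPM in NT cortex. That of 7 genes of cortical excitatory neurons was 132 to 181 CPM in NT cortex and 5.08 to 51.3 CPM in NT striatum. In R6/2 striatum the projection neuron genes summed to 1990 to 3465 CPM, and 7 of the 10 were lower than in NT striatum by the gene test; the part of these cells in the members' levels was not tested. The 7 cortical genes summed to 21.2 to 51.6 CPM in R6/2 striatum. None of 5 astrocyte and 5 microglial genes passed the test in the striatum, and 1 of 6 oligodendrocyte genes, the myelin gene Mobp, was lower. Genes of choroid plexus summed to 9622 CPM in NT striatum 3, against 55.2 CPM in the lowest of the NT striatal samples. In bulk tissue, fewer cells of a type and less RNA per cell cannot be told apart.

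In the striatum of R6/2 mice, Arpp19 was at 34.8% and Arpp21 at 34.4% of the NT level, and Ensa did not pass the test. Arpp19 stood at 473, 596, 680 and 899 CPM in the NT samples 1 to 4 and at 242, 178, 231 and 263 CPM in the R6/2 samples 1 to 4. Every R6/2 sample lay below every NT sample. Its log2 fold change was -1.52 (SE 0.18, 95% interval -1.90 to -1.14), with an adjusted p of 0.00036 (edgeR quasi-likelihood test, Benjamini-Hochberg over 7658 genes). Arpp21 stood at 1336, 1565, 1685 and 1793 CPM in NT and at 533, 482, 636 and 550 CPM in R6/2 striatum, again without overlap. Its log2 fold change was -1.54 (SE 0.17, 95% interval -1.91 to -1.17), with an adjusted p of 0.00026 in the edgeR test. Ensa stood at 234, 293, 292 and 284 CPM in NT and at 304, 263, 264 and 270 CPM in R6/2 striatum, and the groups overlapped. Its log2 fold change was -0.02 (SE 0.15), and the 95% interval of -0.33 to 0.30 leaves room for changes of that size in either direction.

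By this test 2 of the 3 genes were lower in R6/2 striatum, where 3.84% of all genes tested were, and 2 of the 3 had CPM that were lower without overlap, where 4.28% of all genes were. The median log2 fold change of all genes was -0.00. Without the term for the number of sets, the adjusted p of the edgeR test was 0.060 for Arpp19 and 0.036 for Arpp21, so that the Arpp19 gene call rests on that term.

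**Figure D2:**
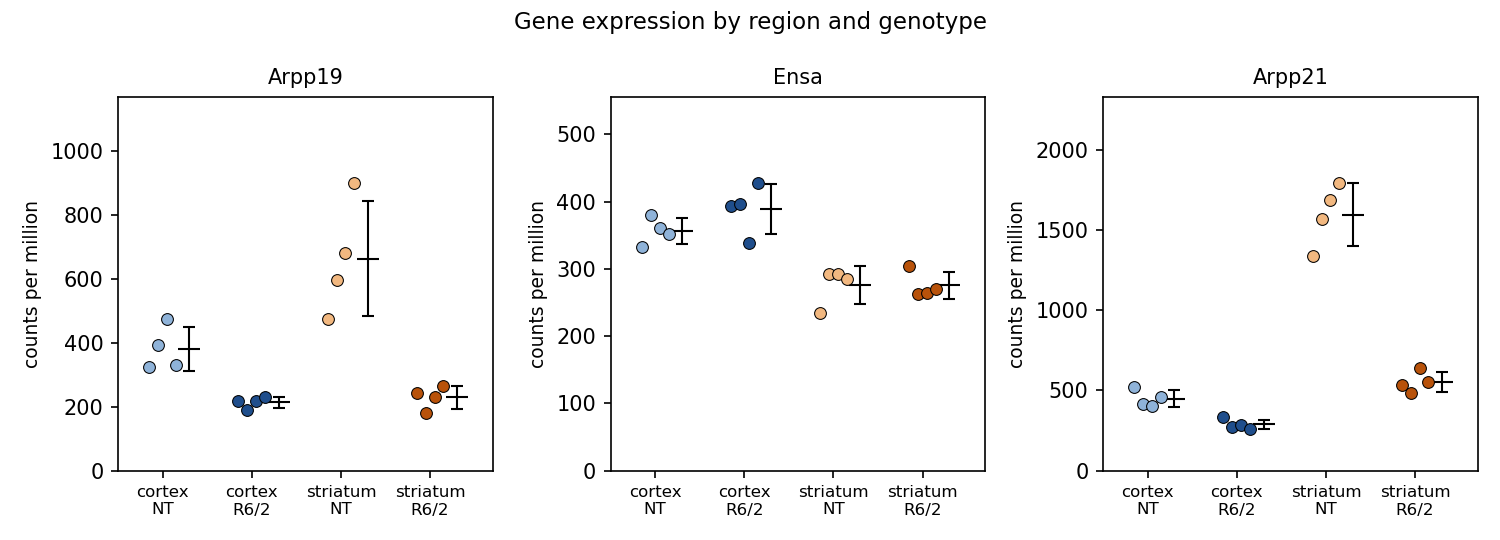
Gene expression of Arpp19, Ensa and Arpp21 in CPM (TMM-scaled, linear axis from 0) in each of the 16 samples (points), with the mean and SD of each group of 4 beside them. Arpp19 and Arpp21 are lower in R6/2 than in NT in both regions without overlap, while the Ensa samples of both genotypes overlap.

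The lower Arpp19 level in R6/2 striatum lay in the 2-exon isoform. That isoform held 64.9%, 67.7%, 69.8% and 71.0% of complete Arpp19 reads in NT 1 to 4 and 28.6%, 28.8%, 31.7% and 23.6% in R6/2 1 to 4. All 4 R6/2 shares were below all 4 NT shares, with means of 68.3% ± 2.67 (SD, n = 4) and 28.2% ± 3.38 (SD, n = 4). The difference was -40.2 percentage points (two-sided exact permutation test over 4 against 4 samples, p = 0.029, the smallest this design allows). This p is not adjusted, although an adjustment over the main isoforms of the 3 genes had been planned: it is not given because these genes were chosen with results known, and none of the 3 would pass 0.05 with it. Exchanging samples only within equal numbers of sets gave an exact p of 0.056, also the smallest possible there, and the difference was -44.3 points among samples of 1 set and -36.0 points among those of 2.

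The shares of the isoforms with the upstream start were higher in R6/2 striatum. The 4-exon isoform held 24.1%, 21.6%, 21.1% and 16.7% of complete reads in NT 1 to 4 and 51.7%, 51.3%, 51.9% and 55.7% in R6/2 1 to 4. The R6/2 samples were all higher, without overlap. The 3-exon isoform went from 6.25% ± 2.03 to 12.3% ± 2.20 (SD, n = 4 each), with 3.74% to 8.33% in NT and 9.62% to 14.7% in R6/2 samples. Of the 9 isoforms of the 3 genes that held at least 5% of complete reads in some group, 4 had striatal shares without overlap between the genotypes. Of all 12430 isoforms, 6.07% did. The Arpp19 isoforms among the 4 split the reads of 1 gene, so they are not separate results. All isoforms here include those of as few as 10 reads, unlike the named ones, and this holds for the other comparisons of shares below.

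In a model of isoform usage over all genes (edgeR diffSpliceDGE), an isoform's change is tested against the change of its gene. Arpp19 had a gene-level adjusted p of 0.0016 there and was the only called gene of the 3, where 0.451% of all genes tested were called. The log2 usage change was -1.25 for the 2-exon isoform (adjusted p = 0.0022, edgeR), 1.35 for the 4-exon isoform (adjusted p = 0.00060, edgeR) and 0.98 for the 3-exon isoform, which did not pass (adjusted p = 0.22, edgeR). Of 24 isoforms of the 3 genes in this test, 3 passed singly, where 0.286% of all isoforms did. These were the 2-exon and 4-exon isoforms of Arpp19 and the 7-exon isoform of Arpp21 described further on. The usage calls rest on the term for the number of sets: without it the edgeR gene-level adjusted p of Arpp19 was 0.76, and that of the 2-exon isoform was 0.59. The 2-exon isoform also lost its call without R6/2 2 (adjusted p = 0.054, edgeR) and without R6/2 4 (adjusted p = 0.056, edgeR), with usage changes of -1.26 and -1.17. With ISM isoforms added to the test it was lost as well (usage change -1.21, adjusted p = 0.057, edgeR). The gene-level adjusted p stayed at 0.037 or below with any single sample left out.

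Counted as reads rather than as shares, the 2-exon isoform fell and the 4-exon isoform did not pass the test. The 2-exon isoform stood at 287, 379, 429 and 584 CPM in NT and at 63.8, 48.6, 69.95 and 61.4 CPM in R6/2 striatum. All R6/2 samples lay below all NT samples. The share of all isoforms with CPM that did not overlap was not counted, here or for the Arpp21 isoforms below. Its log2 fold change was -2.79 (SE 0.22, 95% interval -3.27 to -2.31), a level of 14.4% of NT, with an adjusted p of 5.4e-05 in the edgeR test over isoforms and of 0.012 without the term for sets. The 4-exon isoform stood at 106, 121, 130 and 137 CPM in NT and at 115, 86.5, 114 and 145 CPM in R6/2 striatum, ranges that overlapped. Its log2 fold change was -0.17 (95% interval -0.56 to 0.21, adjusted p = 0.69, edgeR), and that of the 3-exon isoform was -0.54 (95% interval -1.15 to 0.08, adjusted p = 0.36, edgeR). Of the 9 named isoforms, 4 were lower by this test, the 2-exon Arpp19 isoform and 3 of Arpp21, where 3.87% of all isoforms were.

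**Figure D3:**
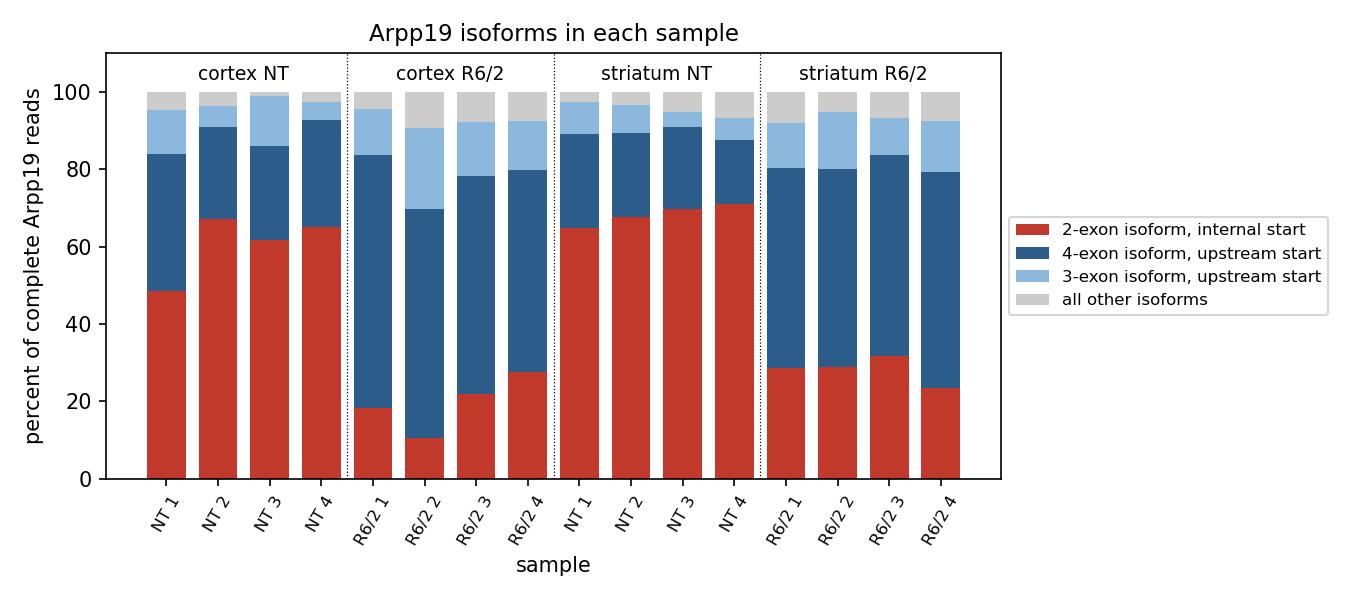
Percent of complete Arpp19 reads held by the 2-exon isoform, the 4-exon isoform, the 3-exon isoform and all other isoforms, 1 stacked bar for each of the 16 samples. The 2-exon isoform takes 48.6% to 71.0% in the NT samples and 10.5% to 31.7% in the R6/2 samples.

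Grouping all known Arpp19 isoforms by their annotated start codon separated the ARPP-16 from the ARPP-19 coding form. Isoforms with the internal start stood at 420 ± 124 CPM in NT and 61.5 ± 9.71 CPM in R6/2 striatum (SD, n = 4 each), and those with the upstream start at 169 ± 24.7 and 147 ± 31.4 CPM. Reads with the internal start outnumbered those with the upstream start in every NT sample, with ratios of 1.96, 2.24, 2.72 and 2.88, and were fewer in every R6/2 sample, with ratios of 0.433, 0.429, 0.515 and 0.325. The mean log2 ratio was lower by 2.53 in R6/2 (log2 difference -2.53, two-sided exact permutation test, p = 0.029; within equal numbers of sets, exact p = 0.056).

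The reading of short against long forms depends on where a read begins, and the tables do not give read ends. The start of the 2-exon isoform lies 182 bases before the third exon of the 4-exon isoform, and both isoforms share the junction to the last exon, so a 4-exon molecule sequenced without its first 2 exons would hold the same single junction. RNA had been treated with an exonuclease that digests RNA with a 5′ phosphate, and cDNA was made by template switching. Arpp19 ISM reads of the suffix type, which hold the 3′ part of an annotated chain of junctions, numbered 21, 33, 26 and 8 in NT and 8, 7, 6 and 1 in R6/2 striatum. With these reads added to the long form the log2 ratio difference was -2.33 (exact permutation p = 0.029). With them added to the short form it was -2.48 (exact permutation p = 0.029). A 4-exon molecule counted as the 2-exon isoform would not be among the suffix reads, so these values do not address it. Over all genes and without genomic reads, suffix reads held 6.90% ± 0.580 of NT reads and 6.31% ± 0.608 of R6/2 reads in the striatum (SD, n = 4 each). Complete Arpp19 reads held 2.54 ± 0.0472 exons on average in NT and 3.27 ± 0.0642 in R6/2 striatum. Complete reads of all genes held 6.73 ± 1.14 and 7.04 ± 0.837. These means count the exons of the isoform a read was assigned to, so the Arpp19 value restates its isoform shares. The lengths of the annotated 2-exon and 4-exon transcripts, 1747 and 3944 bases, also differ, and the part of length in the shares was not tested.

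**Figure D4:**
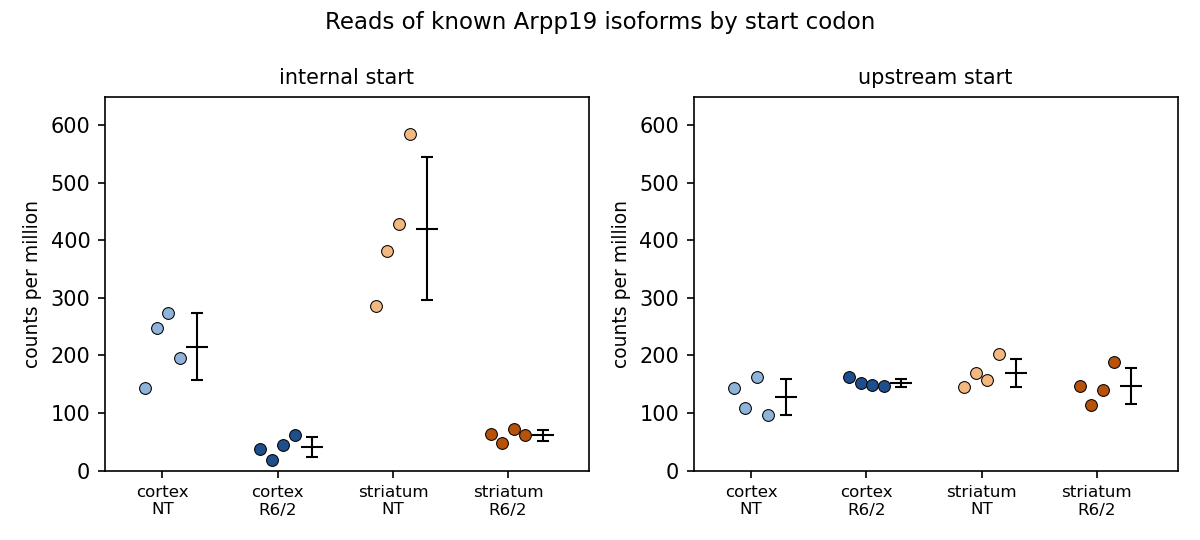
Reads of known Arpp19 isoforms with the internal start (96 codons, left) and the upstream start (112 codons, right), in CPM on 1 scale from 0, for each sample (points) with the mean and SD of each group of 4. The internal start form is lower in R6/2 samples of both regions without overlap, and the striatal upstream start form overlaps between genotypes.

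The cortical values, which chose the genes, had the same direction for Arpp19 and Arpp21 and are given as a description. Arpp19 stood at 324, 393, 473 and 331 CPM in cortex of NT 1 to 4 and at 218, 189, 217 and 231 CPM in R6/2 1 to 4, with a log2 fold change of -0.81 (SE 0.18). Arpp21 stood at 522, 413, 402 and 458 CPM in NT and at 330, 274, 284 and 260 CPM in R6/2 cortex, with a log2 fold change of -0.63 (SE 0.18). Both genes were lower without overlap, while Ensa was at 333, 380, 361 and 351 CPM in NT and at 393, 397, 338 and 428 CPM in R6/2 cortex (log2 fold change 0.14, SE 0.18). The 2 genes without overlap stand beside 6.47% of all genes that were lower without overlap in the cortex.

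The 2-exon Arpp19 isoform held 48.6%, 67.1%, 61.6% and 65.1% of complete reads in cortex of NT 1 to 4 and 18.2%, 10.5%, 21.8% and 27.7% in R6/2 1 to 4. The 4-exon isoform held 35.2%, 23.8%, 24.4% and 27.5% in NT and 65.5%, 59.3%, 56.3% and 52.1% in R6/2 cortex. Both isoforms were without overlap in the cortex and were the only 2 of the 9 named isoforms for which this held, beside 6.32% of all 8133 isoforms. In CPM the 2-exon isoform stood at 144, 247, 269 and 196 in NT and at 38.2, 19.1, 44.8 and 62.5 in R6/2 cortex. The 4-exon isoform stood at 104, 87.6, 107 and 82.7 in NT and at 138, 108, 116 and 118 in R6/2 cortex. Ratios of internal to upstream start reads were 1 to 2.29 in NT and 0.125 to 0.426 in R6/2 cortex. The depth behind these shares was low: the smallest, in R6/2 2, was 9 of 86 complete reads (95% Wilson interval 5.60% to 18.7%, for counting error only), and the lowest NT share, in NT 1, was 51 of 105 reads (39.2% to 58.0%).

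For Ensa, the paralogue with both phosphorylation sites, no difference in isoform makeup passed a test. Its 4-exon isoform held 82.4%, 90.8%, 88.6% and 84.9% of complete reads in NT 1 to 4 and 88.3%, 81.3%, 83.1% and 85.2% in R6/2 1 to 4 of the striatum. The groups overlapped, and the difference of means was -2.23 percentage points (two-sided exact permutation test, p = 0.40). The 3-exon isoform held 7.57% ± 3.35 in NT and 10.7% ± 4.02 in R6/2 striatum, and 11.6% ± 3.31 in NT and 11.996% ± 3.34 in R6/2 cortex (SD, n = 4 each). The edgeR usage test gave Ensa an adjusted p of 1.0 in the striatum (unadjusted p = 0.31). In expression the 4-exon isoform had a log2 fold change of -0.11 (95% interval -0.48 to 0.26) and the 3-exon isoform one of 0.51 (95% interval -0.11 to 1.14). The interval of the 3-exon isoform reaches to more than 2 times the NT level, so a change of that size could not be told from none at 3 to 38 reads per striatal sample. ISM reads were few, with group means of 0.939% to 2.11% of Ensa reads outside the genomic class.

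Arpp21 (ENSMUSG00000032503) lies on the minus strand at chr9:112065091-112235938, and its 4 named isoforms lie in a stretch of a few kb within it. The most abundant isoform has 6 exons (ENSMUST00000161467, chr9:112180978-112187949) and is annotated as a processed transcript without a coding frame. An isoform of 5 exons (ENSMUST00000178410, chr9:112180032-112187926) and one of 7 exons (ENSMUST00000172380, chr9:112180032-112187929) are annotated with the same coding sequence of 88 codons, that of the regulator of calmodulin signalling. A second isoform of 5 exons starts downstream (ENSMUST00000160741, chr9:112182726-112185949) and is also annotated as a processed transcript. The coding sequence is printed, with start and stop codons in capitals, because the 6-exon isoform and the downstream 5-exon isoform hold all 267 bases of it as well, as do 8 of the annotated Arpp21 transcripts in all:
Arpp21 short coding sequence, from the 5-exon isoform: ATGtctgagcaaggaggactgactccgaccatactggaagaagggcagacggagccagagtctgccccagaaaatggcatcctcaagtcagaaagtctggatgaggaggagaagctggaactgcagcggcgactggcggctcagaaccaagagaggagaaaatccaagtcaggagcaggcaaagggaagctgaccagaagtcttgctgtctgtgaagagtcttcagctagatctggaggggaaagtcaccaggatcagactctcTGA
The 4 named isoforms differ in exons upstream of this sequence and in their start. Their last exons differ as well, except that the 7-exon isoform and the first of the 5-exon isoforms share theirs.

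In R6/2 striatum 3 of the 4 named Arpp21 isoforms fell, and the 7-exon isoform did not pass the test. The 6-exon isoform stood at 922, 1105, 1039 and 1001 CPM in NT 1 to 4 and at 284, 268, 375 and 283 CPM in R6/2 1 to 4, without overlap. On the log2 scale it changed by -1.81 (SE 0.18, a level of 28.5% of NT, adjusted p = 0.00031, edgeR). The upstream 5-exon isoform had a log2 fold change of -1.74 (adjusted p = 0.00047, edgeR), and the downstream 5-exon isoform one of -1.61 (adjusted p = 0.0028, edgeR), a call that was lost without the term for sets (adjusted p = 0.13). The 7-exon isoform stood at 42.1, 43.8, 59.1 and 102 CPM in NT and at 30.4, 41.1, 49.8 and 41.8 CPM in R6/2 striatum, ranges that overlapped. A log2 fold change of -0.47 resulted (95% interval -1.09 to 0.16, adjusted p = 0.43, edgeR).

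The share of the 7-exon isoform was higher in R6/2 striatum. It was 3.40%, 3.04%, 3.94% and 6.51% of complete Arpp21 reads in NT and 6.92%, 9.55%, 8.74% and 9.50% in R6/2 striatum, without overlap. Its log2 usage change was 1.25 (adjusted p = 0.023, edgeR). The call was lost in 4 of the 7 other settings and without any 1 of NT 1, NT 2, NT 3, R6/2 2, R6/2 3 and R6/2 4 (adjusted p = 0.050 to 0.28 for the samples). The gene-level adjusted p of Arpp21 was 0.094 (edgeR Simes test), and it passed with isoforms of at least 20 reads (adjusted p = 0.034) and without NT 4 (adjusted p = 0.042). The 6-exon isoform held 71.2% ± 5.61 in NT and 64.3% ± 1.46 in R6/2 striatum (SD, n = 4 each), a difference of -6.93 percentage points (two-sided exact permutation test, p = 0.11), with -2.27 points among samples of 1 set and -11.6 points among those of 2.

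**Figure D5:**
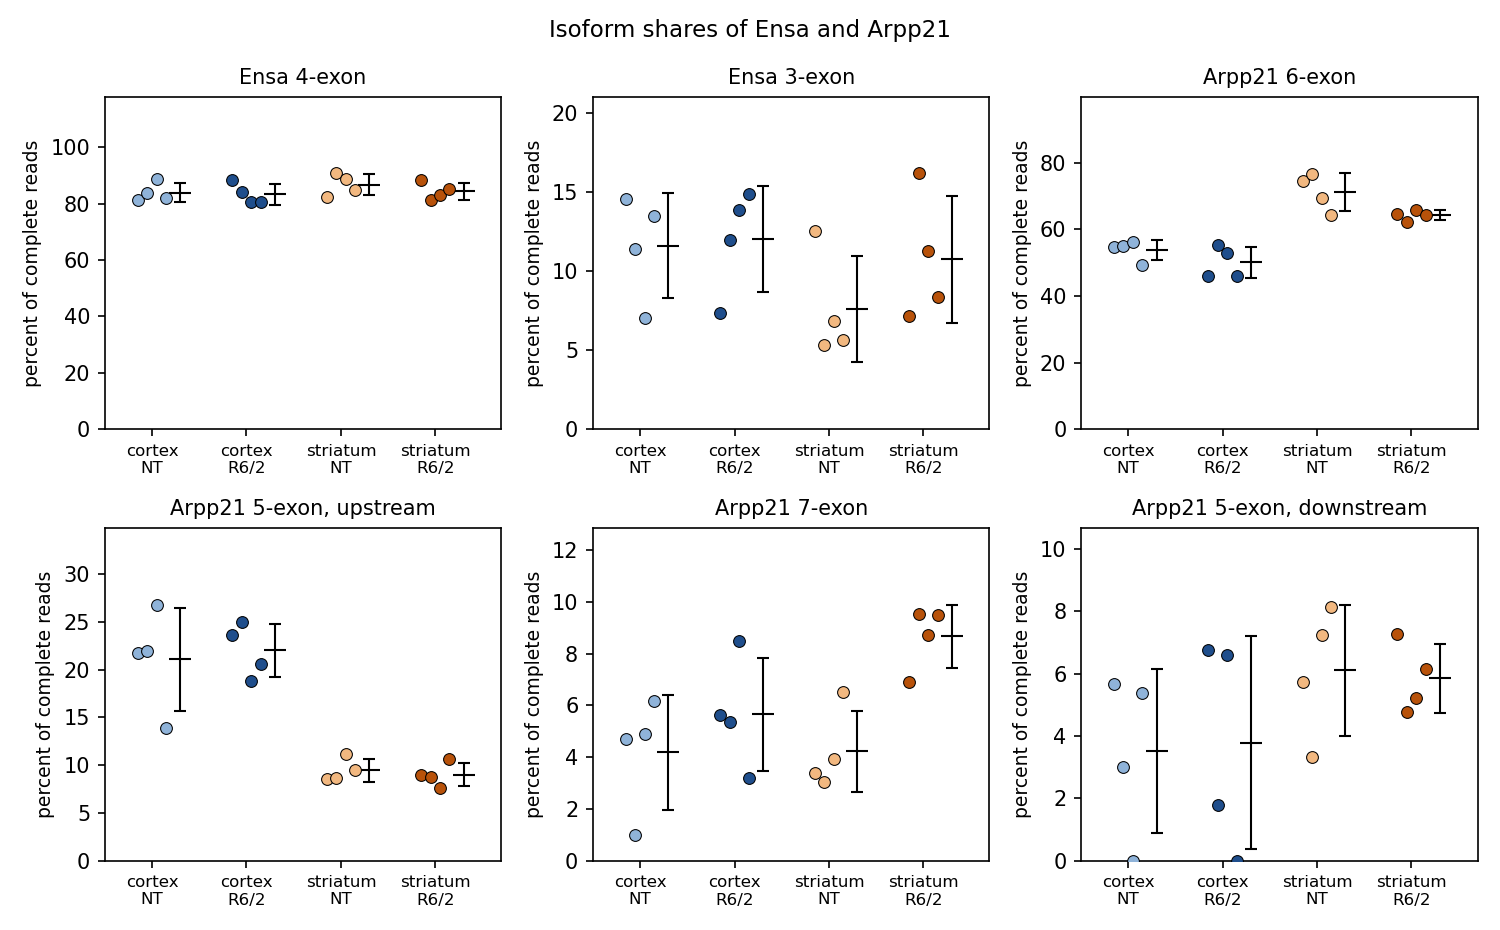
Percent of complete reads of the gene held by 2 Ensa isoforms and 4 Arpp21 isoforms in each sample (points), with the mean and SD of each group of 4; each panel has its own linear axis from 0. The Arpp21 7-exon share is 3.04% to 6.51% in NT and 6.92% to 9.55% in R6/2 striatum, and the Ensa groups overlap throughout.

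Between the regions of NT mice, Arpp21 was higher in striatum, at 449 ± 54.4 CPM in cortex and 1595 ± 196 CPM in striatum (SD, n = 4 each). The log2 fold change was 1.98 (SE 0.27, 95% interval 1.38 to 2.58, adjusted p = 0.0010, edgeR), and every striatal sample was above every cortical one. With ISM reads left out the log2 fold change was 2.67 (adjusted p = 0.00087, edgeR). Arpp19 was at 380 ± 69.0 CPM in cortex and 662 ± 179 CPM in striatum, with a log2 fold change of 0.97 that is given without a test. Ensa was at 356 ± 19.6 and 276 ± 28.1 CPM, with a log2 fold change of -0.22 (95% interval -0.73 to 0.30, adjusted p = 0.60, edgeR). Every striatal Ensa sample was below every cortical one, at 234 to 293 against 333 to 380 CPM, and the test did not pass. The share of all genes without overlap between the regions was not counted. The lack of overlap of Arpp21 and Ensa here is therefore a description only. The CPM are scaled over all 16 samples and the fold changes within the samples compared, so their sizes can differ. Of Ensa and Arpp21, 1 was thus called higher in striatum, where 5.89% of all genes were, and the median of all genes was 0.12 on this scale. The NT samples of this comparison are also the reference of the genotype comparisons above, so the region and genotype values are not independent of each other. The NT cortex samples also took part in the choice of the genes, which limits the p-values of Ensa and Arpp21 between regions. Genes of oligodendrocytes moved with the region too: 6 of 6 were higher in striatum, with sums of 13287 to 31244 CPM against 3676 to 7427 CPM in cortex, and their part in these differences was not tested.

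The isoform makeup of Arpp19 in NT mice overlapped between the regions, with the 2-exon isoform at 60.6% ± 8.32 in cortex and 68.3% ± 2.67 in striatum (SD, n = 4 each, no test). In R6/2 mice it was 19.5% ± 7.20 in cortex and 28.2% ± 3.38 in striatum. Of Ensa and Arpp21, neither was called for isoform usage between the NT regions (gene-level adjusted p = 1.0 and 0.27, edgeR), where 0.271% of all genes were. All 4 named Arpp21 isoforms were higher in NT striatum in expression, by 3.08 for the 6-exon isoform (adjusted p = 0.00041, edgeR). The rise was 1.57 for the upstream and 3.20 for the downstream 5-exon isoform and 2.58 for the 7-exon isoform on the log2 scale (adjusted p = 0.017, 0.011 and 0.022, edgeR). These 4 of 6 tested isoforms of Ensa and Arpp21 stand beside 4.9% of all isoforms that were higher. The calls of the 7-exon and upstream 5-exon isoforms were each lost without cortical NT 2, and also without cortical NT 3 for the first and without cortical NT 4 or striatal NT 3 for the second (adjusted p = 0.056 to 0.064, edgeR). In share of complete reads the 6-exon isoform was at 53.8% ± 3.08 in NT cortex and 71.2% ± 5.61 in NT striatum, and the upstream 5-exon isoform at 21.1% ± 5.37 and 9.45% ± 1.22 (SD, n = 4 each), without overlap for either. They were the 2 of the 9 named isoforms with shares that did not overlap between the NT regions, where 6.56% of all isoforms tested for usage did not.

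Cortical Arpp21 reads were rich in the ISM class, which the shares of complete reads leave out. With genomic reads left out, ISM reads held 44.8% ± 2.60 of Arpp21 reads in NT cortex and 48.3% ± 6.25 in R6/2 cortex. In the striatum they held 9.88% ± 2.62 in NT and 14.7% ± 4.91 in R6/2 samples (SD, n = 4 each). The lowest cortical sample was at 41.7% and the highest striatal sample at 20.1%. Over all genes the ISM percent, again without genomic reads, was 18.8% ± 1.54 in NT cortex and 15.8% ± 3.47 in NT striatum. When ISM isoforms were added to the usage test, Arpp21 was called between the NT regions (gene-level adjusted p = 8.4e-10, edgeR), and it was called neither in the fit without them nor in the other 14 settings. Complete reads of the long Arpp21 transcripts were rare: 9 annotated transcripts span the Mir128-2 hairpin (chr9:112118636-112118711, minus strand), 4 of them are in the tables, and together they had 8 complete reads over all samples. Unannotated isoforms (NIC and NNC) were also more numerous for Arpp21, at 16.3% ± 5.49 of complete reads in NT cortex and 7.20% ± 1.25 in NT striatum, against 2.13% ± 1.57 and 2.61% ± 1.20 for Arpp19. The isoforms of Arpp21 that are not named singly numbered 105 in NT and 88 in R6/2 striatum, and none held more than 1.21% of complete reads in either group.

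The listed enzymes that act with ARPP-19 and endosulfine mostly did not pass the test. The gene of MAST3, the related kinase of striatal neurons, was not on the list and was not looked at. Of 12 genes of the Greatwall and PP2A-B55 pathway, 7 were expressed enough to test, and 1 was lower in R6/2 striatum: Ppp2r2a, which encodes the B55 alpha subunit, fell from 192 ± 29.0 to 107 ± 33.0 CPM (log2 fold change -0.85, SE 0.16, adjusted p = 0.0096, edgeR). That call was lost without R6/2 2 (adjusted p = 0.054) and without the term for sets (adjusted p = 0.16). Ppp2r2b, the B55 beta subunit, had a log2 fold change of -0.35 (adjusted p = 0.30, edgeR), and Mastl, the Greatwall kinase itself, was at 0.613 ± 0.785 CPM in NT and 0.800 ± 1.02 CPM in R6/2 striatum and was not tested. The median log2 fold change of the 7 genes was -0.65. Between the NT regions Ppp2r2a was higher in striatum (log2 fold change 0.96, adjusted p = 0.033, edgeR). The call was lost without any 1 of the 4 cortical samples, striatal NT 1 or striatal NT 3 (adjusted p = 0.060 to 0.089). It was also lost with upper-quartile scaling, with no filter on low counts, with ISM reads left out and with striatal samples of 1 set only (adjusted p = 0.055 to 0.11). Ppp2r2b had a log2 fold change of -0.63 (adjusted p = 0.11, edgeR).

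Of the 6 subunit genes of PKA, which phosphorylates the C-terminal serine of these proteins, 6 were tested and none passed in the striatum or between the regions, with medians of 0.18 and -0.03 on the log2 scale. R3hdm2, which like Arpp21 encodes a protein with an R3H domain, had a log2 fold change of 0.32 in R6/2 against NT striatum and did not pass (adjusted p = 0.72, edgeR); the sign turned without R6/2 4 (-0.00235). It was lower in NT striatum than in NT cortex, at 22.0 ± 6.21 against 60.5 ± 30.2 CPM (log2 fold change -1.44, adjusted p = 0.035, edgeR). The call was lost without any 1 of cortical NT 1, NT 2 and NT 4 and striatal NT 1, NT 2 and NT 3 (adjusted p = 0.056 to 0.088).

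Over the 16 samples the genes whose log2 CPM followed each member most closely, of 7389 compared, were Crym (Pearson r = 0.92), Crip2 (r = 0.91) and Itpr1 (r = 0.90) for Arpp19. The closest 3 to Ensa included Jakmip3 (r = 0.90) and Rragb (r = 0.89), and those to Arpp21 were Rasgrp2 (r = 0.97), Adcy5 (r = 0.96) and Penk (r = 0.96). Crym encodes a thyroid hormone binding protein and Itpr1 the type 1 receptor of inositol trisphosphate, while Rasgrp2, the adenylyl cyclase gene Adcy5 and the enkephalin precursor gene Penk are known for their expression in striatum. Between the members, r was 0.82 for Arpp19 with Arpp21, -0.28 for Arpp19 with Ensa and -0.70 for Ensa with Arpp21. The points share region, genotype and library within each sample, and the 16 samples fall into 4 groups, so these are descriptions of the group levels without a test.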

How the data were processed

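Long-read cDNA of polyA RNA was sequenced from 16 samples (4 per region and genotype). The authors mapped full-length reads to mm10 with minimap2 2.17-r941, corrected them with TranscriptClean and assigned them with TALON to Ensembl transcripts; the deposited values are the unfiltered counts of reads per transcript and sample. Here both sets of counts of a sample were summed and used as whole counts. Genes (known, ISM, NIC and NNC reads) and isoforms (known, NIC and NNC reads) were tested with edgeR 4.0.16 in R 4.3.3 (TMM, filterByExpr, glmQLFit and glmQLFTest; diffSpliceDGE with Simes p-values for isoforms of at least 10 reads), adjusted by Benjamini-Hochberg over each whole table at 0.05, with the number of sets as a term in the striatum. The scripts were tested on simulated data. Single values per sample were compared by exact permutation tests (scipy 1.17.1; 70 arrangements). The tests of single isoform expression and of start forms were added after seeing the data. DESeq2 1.42.0, other filters, scalings and read classes, and leaving out each sample were tried as alternatives.

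The members and lists were chosen with earlier results of these data known. Named were the 3 genes, their isoforms with at least 5% of complete reads in a group, pathway genes that passed a test with Mastl, Ppp2r2a and Ppp2r2b, and the 3 genes most correlated with each member (log2 CPM, prior count 2). Some genes that these rules or lists name are not reported here. Sequences come from GENCODE M21 transcripts, matched by transcript ID. The HTT transgene cannot be checked in counts on the mouse genome. No 2 samples of a group agreed within sampling noise (chi-square per degree of freedom 2.70 to 28.1). The labels name no animals, so p-values measure only the spread between these samples, and intervals of shares cover counting error only.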

Additional observations from a re-analysis of the deposited data

Results flagged for a closer look

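Among 76 sets of 4 samples, 3 held a sample that stood apart from the other 3 by Dixon's test, which flags about 1 in 20 sets by chance. Ensa was at 234 CPM in striatal NT 1, below the group median of 288 CPM, a gap of 0.860 of the group's range. ISM reads held 5.36% of Ensa reads outside the genomic class in striatal NT 4, against a median of 1.12% (gap 0.935), which is 3 of 56 reads. The 4-exon isoform of Arpp19 held 55.7% of complete Arpp19 reads in striatal R6/2 4, against a median of 51.8% (gap 0.854).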

How the results depend on the processing

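Of 777 values under alternatives, 628 were counted as unchanged, by a rule that differed with the kind of value. A tested value had to keep its direction and its side of the threshold. A count of calls had to stay within a fixed ratio of the main count. A value without a test had to shift by less than the SD between samples. Called genes in R6/2 against NT striatum numbered 332, and 606 without a filter on low counts, 181 with the first set of counts only, 39 without the term for sets and 143 to 391 with 1 sample left out. The Arpp19 log2 fold change was -1.55 without that term. The Ensa value changed sign with upper-quartile scaling (0.034), DESeq2 (0.00404), no filter (0.052), genomic reads added (0.065) and 1 sample left out (-0.075 to 0.076). Genes called for usage numbered 20, and 74 by the gene-level F test, 7 with known isoforms only, 11 with ISM isoforms, 3 without the term, 8 with the first set and 5 to 26 with 1 sample left out; the usage change of the 2-exon Arpp19 isoform was -1.21 with ISM isoforms, -1.30 without the term and -1.33 to -1.17 with 1 sample left out. Isoforms called in expression numbered 279, and 30 without the term and 110 to 339 with 1 sample left out, when the value of the Ensa 4-exon isoform ran from -0.21 to 0.039.

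Between the NT regions 583 genes were called, and 1302 without a filter, 369 with at least 20 reads in 4 samples, 355 without ISM reads, 965 with all 16 samples, 1609 with striatal samples of 1 set and 352 to 736 with 1 sample left out. Arpp19 was at 0.89 with DESeq2, 0.82 with all 16 samples, 1.08 with striatal samples of 1 set and 0.73 to 1.10 with 1 sample left out. Usage called 10 genes, 22 by the F test and 0 to 12 with 1 sample left out, beside 164 at an unadjusted p under 0.05 with all samples; isoform expression called 206 to 472 then. In the cortex 200 genes were called, and 95 without ISM reads, 43 with all 16 samples and 95 to 305 with 1 sample left out; usage called 11 genes, 28 by the F test, 7 with known isoforms only and 1 to 15 with 1 sample left out, and isoform expression 65 to 205. R3hdm2 changed sign in the striatum, from 0.32 to -0.00235 without R6/2 4 (-0.00235 to 0.57 over samples left out), and the usage change of the 7-exon Arpp21 isoform between regions, -0.22, was 0.35 with ISM isoforms, 0.069 with striatal samples of 1 set and -0.54 to 0.13 with 1 sample left out; no call was made for either.

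The striatal share difference was -44.3 (1 set), -36.0 (2 sets), -40.2 (permuted within numbers of sets) and -41.3 to -38.6 points (1 sample left out) for Arpp19 and -2.27 (1 set) and -11.6 points (2 sets) for Arpp21; the start form log2 ratio difference was -2.63 to -2.40 with 1 sample left out, where 0.057 is the smallest p. The cause of these changes was not tested, beyond the fewer samples or genes that some settings hold. The labels do not say that equal numbers mark 1 mouse. Cortex and striatum of the same genotype and number correlated at -0.23 to 0.40, not every pair above 0.1. Same-numbered samples of 1 region and different genotypes, which cannot be 1 mouse, correlated at -0.57 to 0.62. Of the R6/2 samples, numbers 1, 2 and 3 correlated best with their own number in the other region (0.40, 0.19 and 0.38). This is a hint from the data only. With the number as a replicate block, 185 striatal genes were called, 307 genes and 1 usage gene between regions, and no call of Arpp19, Ensa or Arpp21 as genes changed; the 7-exon Arpp21 isoform lost its striatal usage call (adjusted p = 0.054, edgeR) and Ppp2r2a and R3hdm2 their calls between regions (adjusted p = 0.11 and 0.12, edgeR). Depth limits the shares, which rest on as few as 41 complete reads of a gene in a cortical sample (Arpp21, NT 3) and 53 in a striatal one (Ensa, NT 4).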
